A study of Mus musculus with 16 samples.

Results

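Cultured mouse male germline stem cells were compared 9 days and 4 days after they had been moved from a feeder layer to Matrigel. The comparison used 1 RNA library for each day, which is 2 of the 16 samples of the series and 2 of its 12 RNA libraries. Another library of the same experiment, from cells still on mouse embryonic fibroblast (MEF) feeders and called day 0 here, was used only to place levels. All 3 cultures came from B6;CBA-Tg(Pou5f1-EGFP)2Mnn/J mice at postnatal day 5.5, in which enhanced green fluorescent protein is driven by the promoter of Pou5f1 (Oct4). Germ cells positive for the Oct4 reporter and negative for the receptor KIT had been sorted and kept in serum-free StemPro-34 medium with GDNF, bFGF and EGF, with a passage each week. The other 9 RNA libraries came from cultures at a low and a high Matrigel density, from fractions sorted by Oct4-GFP level, and from cultures treated with the G9a inhibitor UNC0638 or its solvent. There was 1 library a side, so the spread between replicate cultures is unknown and no p-values are printed. The labels do not say how many animals or dishes stood behind a library.

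Germline stem cells are the cultured form of the spermatogonial stem cells of the testis. GDNF acts on them through the receptor RET and its partner GFRA1, and FGF and EGF act through ERK signalling; MEF feeders add secreted factors and an extracellular matrix. Matrigel is a basement membrane extract rich in laminin, collagen IV and nidogen, and cells read such a surface through integrins, the actin cytoskeleton and the transcription factors SRF and YAP.

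A gene's level is given in CPM, the count as a share of its library after scaling between libraries, and a difference as the log2 ratio of CPM + 1, day 9 over day 4. A gene was well counted when its 2 libraries together held at least 100 counts, and 10612 named genes were. A well-counted gene is called higher or lower, and the words rose and fell are used, when it differed at least 1.5-fold and the 95% counting interval of its read split lay wholly on that side of no change. The intervals are on the log2 scale, were computed without the added 1, and cover counting error only. In RNA from whole cultures, fewer cells of a type and less RNA per cell cannot be told apart.

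Days 4 and 9 were the most alike pair by count. Of 14301 genes kept, 249 (1.74%) differed at least 2-fold, 126 higher (0.881%) and 123 lower (0.86%) on day 9. That was the fewest among the 13 pairs within an experiment, where the others ranged from 326 to 1781. Depth was not matched between pairs. The 12 libraries held from 4335185 to 12019651 counts, with days 4 and 9 among the deepest, and the part of depth in this rank was not tested. The Pearson r of log2(CPM + 1) was 0.987 for days 4 and 9 and 0.986 for days 0 and 4. Of the 249, 177 were thinly counted or were predicted loci with symbols starting with LOC or EG, which are set aside. Among the well-counted named genes, 601 (5.66%) passed the 1.5-fold rule, 344 higher (3.24%) and 257 lower (2.42%). Their log2 ratios had a median of -0.02 and an SD of 0.30 across genes. The calls in the plot of ratio against level thin out as the level rises. Called genes at high levels include Hnrpu (893 and 367 CPM on days 4 and 9), Psme3 (425 and 247 CPM) and Cenpf (200 and 326 CPM).

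**Figure D1:**
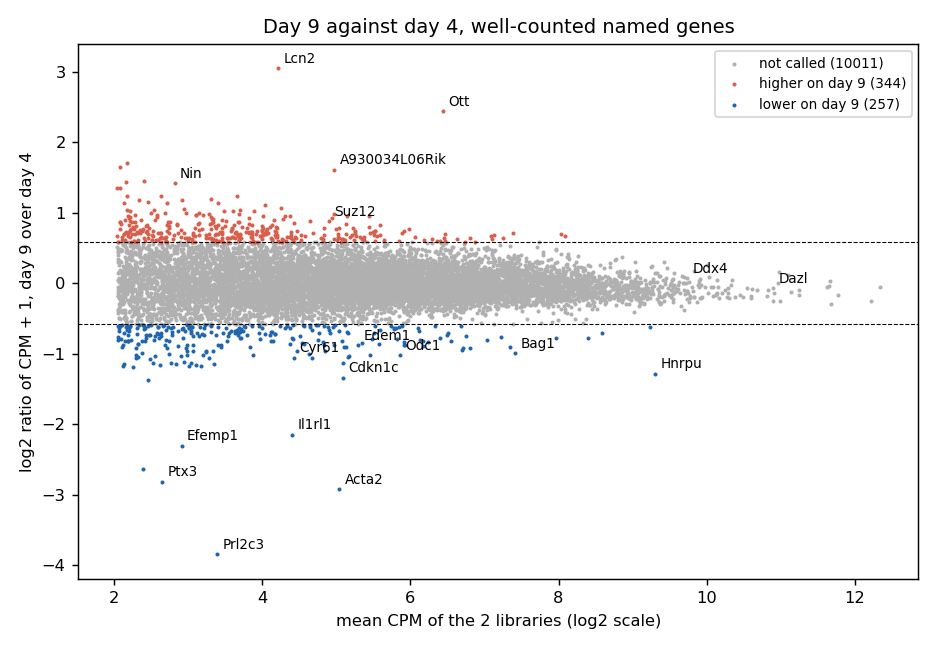
Log2 ratio of CPM + 1 (day 9 over day 4, 1 library each) against the log2 mean CPM of the 2 libraries, for 10612 well-counted named genes. Red points were called higher (344) and blue points lower (257) on day 9, and the dashed lines mark 1.5-fold; Lcn2 and Ott are at the top, and Prl2c3, Acta2 and Ptx3 at the bottom.

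The ratio followed gene length. In 10 classes of length, its median went from -0.16 in the shortest (median length 868 bases) to 0.22 in the longest (median 6814.5 bases), and Spearman's rho across genes was 0.398, a description since the genes share both libraries. The shortest class held 4 genes called higher and 39 lower, and the longest 110 higher and 16 lower. The library of day 4 had a mean fragment length of 157 bases by the deposited effective lengths, against 149 bases in those of days 0 and 9. Depth was alike, with 11873119 counts on day 4 and 12000961 on day 9 (7661976 on day 0). The part of fragment length, cDNA amplification or RNA quality in the trend was not tested. Each ratio was therefore also centred on the median of genes of like length, a step added after seeing the data, which left 253 genes higher (2.38%) and 244 lower (2.3%), with 215 and 201 of them shared with the uncentred calls. Values "length-centred" below are on that scale.

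**Figure D2:**
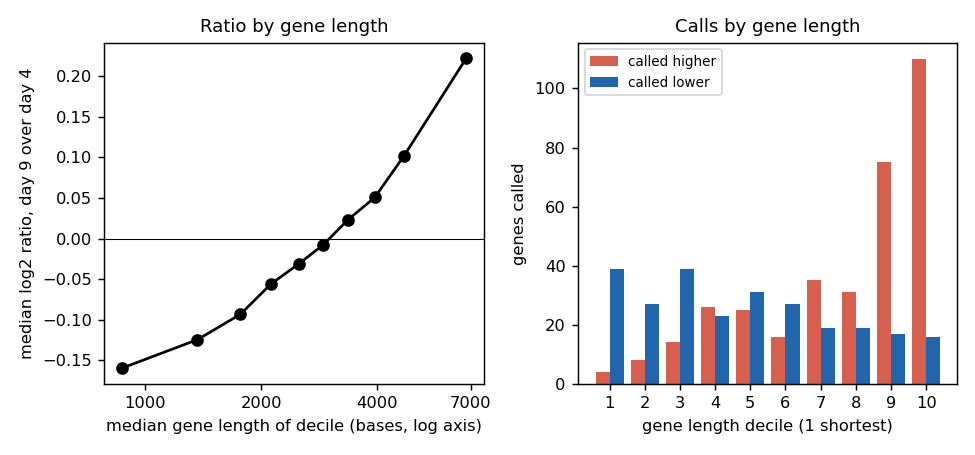
Left, the median log2 ratio of CPM + 1 (day 9 over day 4) of each of 10 gene length classes against the median length of the class in bases (log axis). Right, the number of genes called higher (red) and lower (blue) in each class; the longest class holds 110 higher and 16 lower, the shortest 4 and 39.

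The 6 lowest ratios belonged to a contractile actin and to secreted or surface proteins. Acta2, the smooth muscle actin that marks contractile cells, had 45.0 CPM on day 0, 59.0 on day 4 and 6.92 on day 9. Its log2 ratio was -2.92 (interval -3.43 to -2.77), the lowest of the actin, SRF and YAP list. Cyr61 (now Ccn1), a matricellular protein induced by SRF and YAP, had 27.2, 29.5 and 13.7 CPM, a log2 ratio of -1.06 (-1.39 to -0.84). On day 4 Cyr61 was near its feeder level and Acta2 above its own, and on day 9 both genes were below it. The upstream promoter sequences of these 2 genes are shown because the elements of SRF and of the YAP partner TEAD have known letters. They are the 250 bases before the start site, from RefSeq on GRCm38.p6, minus strand, at chr19:34255374-34255623 for Acta2 and chr3:145649986-145650235 for Ccn1. Capitals mark CArG boxes (the SRF element, 1 letter of the A/T core allowed to differ) and the TEAD letters CATTCC on either strand, which read GGAATG on the other one.
Acta2: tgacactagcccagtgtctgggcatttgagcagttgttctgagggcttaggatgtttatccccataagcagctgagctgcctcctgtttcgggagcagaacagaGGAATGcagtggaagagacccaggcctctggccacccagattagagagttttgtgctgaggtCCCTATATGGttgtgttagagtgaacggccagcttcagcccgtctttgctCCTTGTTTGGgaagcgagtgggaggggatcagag
Ccn1: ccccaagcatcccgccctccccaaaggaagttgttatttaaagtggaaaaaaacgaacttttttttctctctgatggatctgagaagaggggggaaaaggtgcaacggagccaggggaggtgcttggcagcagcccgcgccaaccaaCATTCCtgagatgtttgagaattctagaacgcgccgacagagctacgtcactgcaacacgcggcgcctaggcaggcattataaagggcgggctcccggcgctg
The Acta2 sequence held CArG boxes at -84 to -75 and -34 to -25 and a TEAD match at -146 to -141, counted from the start site. The Ccn1 sequence held a TEAD match at -103 to -98 and a TATA box (TATAAA) at -25 to -20. Among all 32851 RefSeq windows of 300 bases (250 before and 50 after a start), 9.98% held a CArG box by this looser rule, 14.7% CATTCC and 13.6% TATAAA. The matches are descriptions of these letters and not evidence of binding.

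Of the 26 members of the actin, SRF and YAP list, 20 were well counted; 0 were called higher, against 3.24% of all well-counted genes, and 3 lower (Acta2, Cyr61 and Ctgf), against 2.42%. The list median was -0.15, or -0.21 length-centred, against -0.02 over all well-counted genes. Ctgf (Ccn2), a matricellular relative of Cyr61, fell from 7.96 CPM on day 4 to 4.23 on day 9, with 9.20 on day 0; it passed the rule at the pseudocount of 1 and not at 5. The calponin Cnn2 had 20.9, 29.0 and 20.4 CPM, and the tropomyosin Tpm4 44.1, 47.1 and 35.2, neither of them called. Cnn1, the smooth muscle calponin, was too thinly counted to call, with 21, 36 and 3 counts. The general cytoplasmic actin Actb stayed outside any call with 1839, 1984 and 1988 CPM, and so did Lats2, a kinase of the Hippo pathway that restrains YAP, with 135, 116 and 157 CPM. The difference was therefore uneven within the list, with the smooth muscle actin far below its day 4 level and Actb within 0.01 log2 of it.

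Other deep falls were in secreted factors and a cytokine receptor. The proliferins Prl2c3 and Prl2c2, prolactin-family hormones whose near-identical copies make their counts uncertain, went from 20.5 to 0.488 CPM and from 9.73 to 0.732 CPM, with 20.6 and 15.4 CPM on day 0. Ptx3, a secreted pentraxin of innate immunity, had 14.1, 11.8 and 0.814 CPM, a log2 ratio of -2.82 that rests on 10 counts on day 9. Efemp1 (fibulin-3), a matrix glycoprotein, had 9.59, 13.2 and 1.87 CPM (-2.31). In each of these 4 genes day 9 lay far below both earlier days. Il1rl1, the receptor of interleukin 33, had 15.6 CPM on day 0, 35.3 on day 4 and 7.16 on day 9 (-2.15). Igfbp3, which binds insulin-like growth factors, had 35.8, 47.0 and 21.0 CPM (-1.13). For Il1rl1 and Igfbp3 day 4 was the highest of the 3 days.

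Matrix and fibroblast genes moved in both directions. Of 26 fibroblast and feeder markers, 19 were well counted; 6 were called higher, against 3.24% of all well-counted genes, and 1 lower, against 2.42%. The 6 were the proteoglycans Bgn and Dcn, tenascin C (Tnc), periostin (Postn), fibulin 2 (Fbln2) and fibrillin 1 (Fbn1), all of them extracellular matrix proteins. Biglycan (Bgn) had 27.7 CPM on day 0, 29.4 on day 4 and 57.8 on day 9, a log2 ratio of 0.95 (0.79 to 1.17). Tnc had 9.59, 13.2 and 26.4 CPM (0.95), and Dcn 16.9, 13.5 and 22.9 (0.73). All 3 were higher on day 9 than on either earlier day. Postn was the lowest of them, with 1.94, 2.62 and 6.43 CPM (1.04), and its call did not hold with a pseudocount of 5. Fbln2 (19.7, 32.0 and 51.2 CPM) and Fbn1 (9.72, 4.23 and 7.32 CPM) were no longer called once length-centred, at 0.57 and 0.40, and Fbn1 was also lost with TPM or a pseudocount of 5.

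The member that fell was Lox, the lysyl oxidase that cross-links collagen and elastin, with 62.4, 78.7 and 42.2 CPM, a log2 ratio of -0.88 (-1.06 to -0.74). Collagen I genes did not pass the rule: Col1a1 had 70.5, 58.7 and 74.8 CPM. Col3a1 had 19.4, 15.7 and 10.3 CPM and the chemokine Ccl2 40.6, 39.9 and 27.9 CPM, also uncalled. The summed level of the 26 markers was 447 CPM on day 0, 456 on day 4 and 494 on day 9, with the fibroblast activation protein Fap at 0 counts in all 3 libraries. The sum thus differed little while single members were called in both directions. The part of remaining fibroblasts in these values was not tested.

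**Figure D3:**
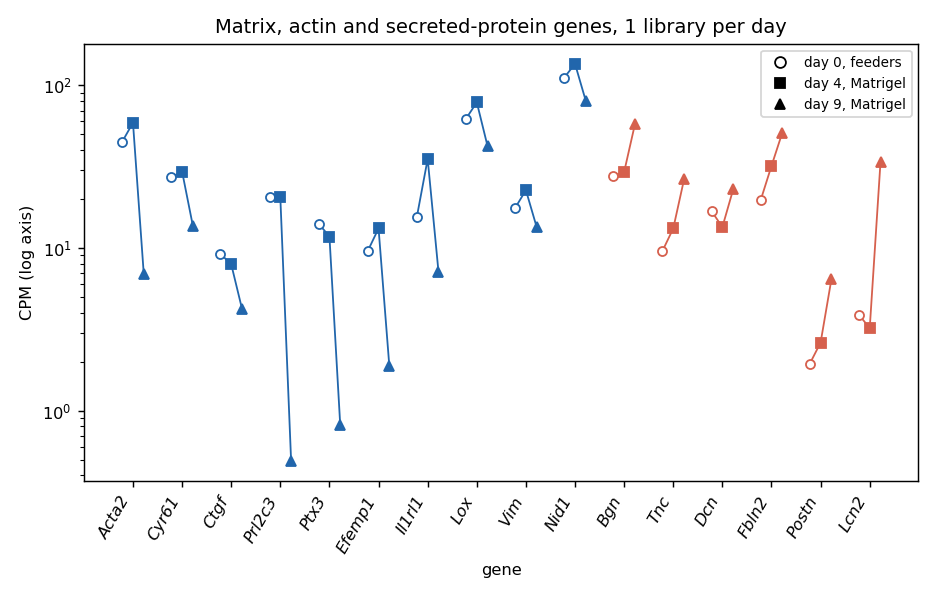
CPM (log axis) of 16 actin, matrix and secreted-protein genes on day 0 (open circle, feeders), day 4 (square) and day 9 (triangle), 1 library each. The 10 blue genes were called lower and the 6 red genes higher on day 9 than on day 4; Acta2 went from 59.0 to 6.92 CPM and Lcn2 from 3.22 to 34.0 CPM.

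Mesenchymal genes leaned lower. Of the 21 genes of the mesenchymal and EMT list (epithelial-mesenchymal transition), 15 were well counted, and their median was -0.31, or -0.24 length-centred, the lowest of the lists with 10 or more such members. 8 of the 15 had a counting interval below no change, against 25.8% of all well-counted genes, and 0 above, against 21.7%. Vim, the intermediate filament vimentin, was the 1 member called lower, against 2.42% of all well-counted genes, and fell from 22.7 CPM on day 4 to 13.4 on day 9, with 17.6 on day 0 (-0.72, -1.05 to -0.47). N-cadherin (Cdh2, -0.51), the hyaluronan receptor Cd44 (-0.43) and the galectin Lgals1 (-0.40) had ratios below 0 without a call. Fibronectin (Fn1) had 134, 160 and 161 CPM, and the transcription factor Snai1 38.6, 41.2 and 44.2 CPM.

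Among basement membrane and integrin genes, 25 of 31 were well counted and 1 was called in each direction, near the 3.24% higher and 2.42% lower of all well-counted genes. Nid1, the nidogen that bridges laminin and collagen IV, had 112 CPM on day 0, 136 on day 4 and 80.2 on day 9, and fell by 0.75 on the log2 scale (interval -0.87 to -0.64). Itga3, the integrin chain that with beta 1 binds laminins, had 11.7, 9.48 and 17.2 CPM and rose by 0.79 (0.52 to 1.20). The 2 calls kept their side when length-centred, at -0.93 and 0.67. Laminin chains Lama5 and Lama3, both very long transcripts, had log2 ratios of 0.58 and 0.54 without a call, and 0.31 and 0.27 length-centred.

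In the epithelial list of junction genes and keratins, 21 of 30 members were well counted, and 1 was called in each direction, again near the 3.24% and 2.42% of all well-counted genes. Crb3, an apical polarity protein, rose from 3.05 CPM on day 4 to 7.97 on day 9, with 6.74 on day 0, so that its day 4 level was the odd one. The simple keratin Krt8 fell from 6.77 to 3.99 CPM with 3.37 on day 0; its partner Krt18 had 16.5, 18.5 and 21.97 CPM, and the Krt8 call was lost with TPM, length centring or a pseudocount of 5. E-cadherin (Cdh1) had 12.6, 14.1 and 12.5 CPM and was uncalled.

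In the TGF-beta and BMP list 11 of 24 members were well counted; 0 were called higher, against 3.24% of all well-counted genes, and 2 lower, against 2.42%. The 2 were Ltbp1, which stores latent TGF-beta in the matrix (13.0, 14.9 and 8.95 CPM, -0.68), and the decoy receptor Bambi (31.1, 38.3 and 25.1 CPM, -0.59). The Bambi call sits at the edge of the rule and was lost with DESeq2 size factors, total counts, TMM over the 2 libraries alone, TPM or a pseudocount of 5, and the Ltbp1 call with TPM or a pseudocount of 5. Of 20 Wnt genes, 11 were well counted and 0 called, against 5.66% of all well-counted genes; the ligand Wnt5a (6.22, 7.02 and 10.5 CPM) was nearest, at 0.52.

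The highest ratios belonged to genes of several kinds. Lcn2, the siderophore-binding lipocalin secreted in acute-phase responses and by neutrophils and epithelia, had 3.89 CPM on day 0, 3.22 on day 4 and 34.0 on day 9 (30, 38 and 418 counts). Its log2 ratio of 3.05 (2.92 to 3.92) was the highest of all well-counted named genes, and its level in the other 9 libraries ranged from 0 to 158 CPM. Lcn2 was the 1 call in a list of 16 myeloid markers, against 3.24% of all well-counted genes called higher. Of the 16, 14 were below the count minimum. Another count, 9 of the 16, were at 0 counts on both days, among them the colony-stimulating factor receptor Csf1r, Tyrobp, Mpeg1 and the complement genes C1qa, C1qb and C1qc. Cd68, the other well-counted member, had 5.06, 5.33 and 4.72 CPM, and the pan-leukocyte gene Ptprc had 1 count on day 4 and 18 on day 9. The leukocyte genes Laptm5, with 10 and 2 counts, and Fcer1g, with 36 and 34, did not share that direction.

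By the likeness rule, the called genes whose log2(CPM + 1) went most like Lcn2 over the 12 libraries were the complement component C3 (Pearson r = 0.866; 6.74, 3.64 and 6.02 CPM, log2 ratio 0.60), the neuronal guidance mediator Dpysl2 (0.858) and Tnfaip3, an inhibitor of NF-kappaB signalling (0.826), as a description of libraries that also share their experiment. Tnfaip3 rose with it, from 2.71 to 7.40 CPM (3.63 on day 0). Haptoglobin (Hp), another acute-phase gene and next in likeness (0.815), did the reverse between these days, with 5.96, 9.48 and 5.70 CPM, a fall of 0.65 on the log2 scale. The calls of C3 and Hp were both lost with TPM, length centring or a pseudocount of 5.

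Ott, an X-linked germ-cell gene with near-identical copies that make its counts uncertain, had 81.2 CPM on day 0, 26.2 on day 4 and 147 on day 9 (2.44). A930034L06Rik, an uncharacterised transcript, had 18.0, 14.98 and 47.9 CPM (1.61). Plcl2, a phospholipase C relative without enzyme activity, had 5.32, 2.37 and 8.22 CPM (1.45), and the centrosome protein ninein (Nin) 6.61, 3.39 and 10.7 CPM (1.42). Nt5e, the ecto-nucleotidase CD73, rose from 3.30 to 9.11 CPM with 3.37 on day 0 (1.23). The zinc finger gene Zfp236 (1.24), the hyaluronan scavenger receptor Stab2 (1.19), Tmem132c (1.19), the cAMP-activated exchange factor Rapgef3 (1.14), the deadenylase subunit Pan3 (1.14), the neuronal kinesin Kif5a (1.11), Tulp4 (1.06), Zfp759 (1.05) and 4930422G04Rik (1.04) completed the 15 highest. Of the 15, Stab2, Zfp236, Tulp4, 4930422G04Rik and Nin come from transcripts of 7046 to 9440 bases, and their length-centred ratios ran from 0.77 to 1.15. Among the 15 highest genes, which the ratio picks partly for a low day 4 value, day 4 was below the feeder level in 14, all but Zfp759, and day 9 was above it in all 15.

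Of 30 genes of undifferentiated spermatogonia, 22 were well counted and 0 were called, against 5.66% of all well-counted genes. Their median was 0.07. Gfra1, the GDNF co-receptor, had 35.5 CPM on day 0, 42.9 on day 4 and 35.2 on day 9, a log2 ratio of -0.28 (-0.47 to -0.10). Ret, the signalling receptor, had 205, 205 and 217 CPM. Its downstream factors Etv5 (174, 169 and 210 CPM, 0.31) and Bcl6b (40.2, 47.6 and 60.3 CPM, 0.33) had intervals above no change while that of Gfra1 lay below it, none reaching 1.5-fold. Zbtb16 (PLZF), a repressor needed for self-renewal, had 47.6, 53.3 and 62.5 CPM, and Id4, a marker of the stem cell pool, 13.2, 7.45 and 5.61 CPM with an interval that included no change. Nanos2, the RNA-binding protein that holds stem cells undifferentiated, had 9.59, 4.49 and 5.45 CPM.

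In the GDNF and FGF response list with the immediate early genes, 20 of 29 members were well counted and 0 were called, near the background of 5.66%. Spred1, a brake on the ERK cascade, was highest at 0.55 (16.3, 14.5 and 21.7 CPM), and the phosphatase Dusp5, induced by ERK, lowest at -0.48 (120, 112 and 80.3 CPM). These feedback genes therefore lay on opposite sides of no change. Fos had 35.5, 38.1 and 47.0 CPM and Egr2 57.7, 59.9 and 68.2 CPM.

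Among pluripotency factors, 16 of 21 were well counted and 1 was called, near the background of 5.66%. Klf5, a zinc finger factor of embryonic stem cells and epithelia, rose from 8.21 to 12.9 CPM with 11.3 on day 0; the call was lost with a pseudocount of 5. Pou5f1, whose promoter drives the reporter of the strain, had 62.6, 61.4 and 49.1 CPM, a log2 ratio of -0.31 (-0.48 to -0.16), and Sox2 6.35, 6.60 and 6.02 CPM. Nanog had 8.82, 4.91 and 5.21 CPM.

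Of 21 genes of spermatogonial differentiation, 17 were well counted and 0 were called, near the background of 5.66%, with a median of -0.09, or -0.01 length-centred. Kit, the receptor absent from the sorted founders, had 57.6, 66.9 and 78.5 CPM (0.23), and Stra8, the retinoic acid target that precedes meiosis, 40.1, 41.5 and 44.4 CPM (0.10). The retinoic acid binding protein Crabp2 had 24.4, 21.8 and 16.7 CPM (-0.37), and the transcription factor Neurog3 16.6, 17.6 and 14.6 CPM (-0.25). The intervals of Kit and Crabp2 lay on opposite sides of no change.

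Defining germ cell genes were at high levels on both days, which checks the label. The RNA helicase Ddx4 (VASA) had 865, 829 and 870 CPM and the RNA-binding protein Dazl 2047, 1951 and 1860 CPM, log2 ratios of 0.07 and -0.07. Dnd1, the other defining gene, had 204, 216 and 175 CPM (-0.31, interval -0.39 to -0.22), uncalled. All 25 matched genes of the germ cell and piRNA list (26 sought) were well counted and 0 were called, against 5.66% of all well-counted genes. The list median was -0.17, or -0.09 length-centred, and 13 of the 25 had an interval below no change, against 25.8% of all well-counted genes. Lowest was Tex19, a germline gene that restrains retrotransposons, with 832, 935 and 719 CPM (-0.38), followed by the DNA-binding factor Dppa3 at -0.34. Piwil2 (MILI), the cytoplasmic Argonaute of the piRNA pathway, had 798, 782 and 840 CPM, and its nuclear relative Piwil4 21.4, 22.8 and 27.2 CPM (0.25).

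Of 31 meiotic genes, 27 were well counted and 1 was called, near the background of 5.66%. Sycp2, a lateral element of the synaptonemal complex, had 27.9 CPM on day 0, 20.9 on day 4 and 40.7 on day 9, a log2 ratio of 0.93 (0.74 to 1.19), and 0.75 length-centred. Tex15, a long germ-cell transcript needed for recombination and transposon silencing, had 181, 173 and 247 CPM (0.51), and the cohesin Smc1b 275, 248 and 315 CPM (0.34). Tex15 and Smc1b were uncalled.

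All 36 members of the DNA replication list were well counted, 0 were called, against 5.66% of all well-counted genes, and the ratios ran from -0.37 (the transcription factor E2f1) to 0.20 (cyclin Ccne2). In the mitosis list 35 of 36 were matched and well counted; 2 were called higher, against 3.24% of all well-counted genes, and 0 lower, against 2.42%. Mki67, the Ki-67 antigen of dividing cells, had 45.2, 45.0 and 75.7 CPM (0.74), and the kinetochore protein Cenpf 243, 200 and 326 CPM (0.70). They come from transcripts of 10117 and 11103 bases and were no longer called length-centred, at 0.46 and 0.42. Cyclin B1 (Ccnb1) had 713, 808 and 692 CPM (-0.22) and topoisomerase Top2a 475, 468 and 576 CPM (0.30), so the mitotic genes did not share 1 direction.

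Of the D-type cyclins, their kinases and inhibitors, 12 of 15 were well counted, 1 called higher and 1 lower, against 3.24% and 2.42% of all well-counted genes. Cdkn1c (p57), an imprinted inhibitor of cyclin-dependent kinases, fell from 49.4 CPM on day 4 to 18.9 on day 9, with 56.1 on day 0, a log2 ratio of -1.34 (-1.61 to -1.17). Of the other inhibitors, Cdkn1a (p21) had 77.0, 80.1 and 75.1 CPM and Cdkn2b 14.0, 13.4 and 12.9 CPM, both uncalled. Cdkn2d, with 19.7, 15.1 and 17.2 CPM (0.18), was uncalled too and had a ratio above 0. So did Cdkn1b, thinly counted with 24 counts on day 4 and 34 on day 9 (0.31), and both intervals included no change. Cdkn2a, with 17 counts on day 4 and 4 on day 9, and Cdkn2c, with 17 and 5, were too thinly counted to call, and both counting intervals lay below no change. Cyclin D2 (Ccnd2) had 420, 426 and 481 CPM and cyclin D1 (Ccnd1) 38.4, 38.8 and 52.2 CPM. Cdk6 passed at 3.13 and 5.21 CPM, with 3.37 on day 0, and was lost with a pseudocount of 5.

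The p53 target list had 21 of 23 members well counted and 1 call, near the background of 5.66%. Fas, the death receptor, had 7.26, 12.4 and 4.96 CPM (-1.16, -1.77 to -0.88), highest on day 4. The other well-counted targets held no call, with Phlda3 lowest among them at -0.46 and Sesn2, a stress-induced sestrin, highest at 0.40. Phlda3 had 36.4 CPM on day 0 and 33.3 on day 4, and was lowest on day 9.

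Imprinted genes, expressed from 1 parental copy, gave 0 higher calls, against 3.24% of all well-counted genes, and 2 lower calls, against 2.42%, among 17 well-counted members of 25 matched and 27 sought. Beside Cdkn1c, the sarcoglycan Sgce fell from 7.87 to 4.88 CPM (6.48 on day 0), a call at the edge that was lost under every alternative tried but a pseudocount of 0.1. Mest had 51.7, 59.9 and 52.8 CPM, Grb10 9.33, 9.48 and 11.6 CPM, and Igf2r, the receptor that clears IGF2, 72.2, 76.4 and 106 CPM (0.47).

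Among regulators of histone and DNA methylation, 36 of 39 were well counted; 2 were called higher, against 3.24% of all well-counted genes, and 2 lower, against 2.42%. Suz12, a core subunit of Polycomb repressive complex 2, had 28.0 CPM on day 0, 20.7 on day 4 and 39.1 on day 9 (0.88, 0.69 to 1.14). Setd2, which trimethylates histone H3 lysine 36, had 36.9, 35.9 and 57.9 CPM (0.68) and 0.50 length-centred, below the rule. Suv39h2, a histone H3 lysine 9 methyltransferase, had 127, 125 and 81.2 CPM (-0.61, -0.74 to -0.50), a call that was lost with total counts or TPM. Tet1 (listed as Cxxc6), which oxidises methylated cytosine, fell from 6.43 to 2.28 CPM on 76 and 28 counts, with 5.19 CPM on day 0 (-1.18). Its relative Tet3 (listed as D230004J03Rik) had 21.6, 21.3 and 14.0 CPM (-0.57) and the deacetylase Hdac2 382, 389 and 275 CPM (-0.50), both short of 1.5-fold. The maintenance methyltransferase Dnmt1 had 219, 224 and 298 CPM (0.41). The Polycomb partners thus lay apart, since Eed had 239, 241 and 183 CPM (-0.40) while Suz12 rose.

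All 30 chromatin remodelling and coactivator genes were well counted, with a median of 0.29 and 21 intervals above no change, against 21.7% of all well-counted genes. Their median length was 7591.5 bases, in the longest class, and their median was 0.05 length-centred. 4 were called higher, against 3.24% of all well-counted genes. Of these, Smarcc2, a SWI/SNF subunit, had 4.02, 1.86 and 6.35 CPM (1.36) on 22 and 78 counts and kept its call length-centred. Bptf (0.71), Chd2 (0.65) and Atrx (0.60), long transcripts of remodelling enzymes, did not, at 0.44, 0.47 and 0.33.

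Hnrpu (now Hnrnpu), a nuclear RNA- and matrix-binding protein that takes part in splicing and chromatin organisation, showed the best-counted difference. It had 1058 CPM on day 0, 893 on day 4 and 367 on day 9 (8163, 10556 and 4511 counts), a log2 ratio of -1.28 (-1.33 to -1.23). In the other 9 libraries it ranged from 130 to 1206 CPM, and it also differed within the other experiments. The epithelial-like and mesenchymal-like cultures had 253 and 601 CPM. The fractions with low, mid and high Oct4-GFP had 130, 924 and 921 CPM. Solvent and the rising doses of UNC0638 had 225, 270, 1206 and 409 CPM. Levels at or above that of day 4 thus occurred in 3 of the 4 experiments, and levels at least 2-fold below it in all 4.

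Several called genes went the same way. Over the 12 libraries, log2(CPM + 1) of Hnrpu had a Pearson r of 0.979 with Psme3, a nuclear proteasome activator, 0.967 with Bag1, a co-chaperone of HSP70, 0.952 with Gmcl1, the mouse germ cell-less homologue, 0.95 with Ubfd1 and 0.948 with Prkar2b, a regulatory subunit of protein kinase A. These were the 5 highest among the 601 called genes; the libraries share their experiments, and no test was made. Bag1 had 254, 227 and 114 CPM on days 0, 4 and 9 (-0.99), Psme3 440, 425 and 247 (-0.78) and Gmcl1 79.7, 79.0 and 42.6 (-0.87). In the low, mid and high Oct4-GFP fractions Bag1 had 54.4, 176 and 169 CPM and Psme3 119, 471 and 458 CPM. Cdkn1c had 8.15, 62.3 and 83.2 CPM there, and 17.6, 21.6, 69.1 and 39.2 CPM with solvent and the rising doses of UNC0638. These genes were picked from those called between days 4 and 9.

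**Figure D4:**
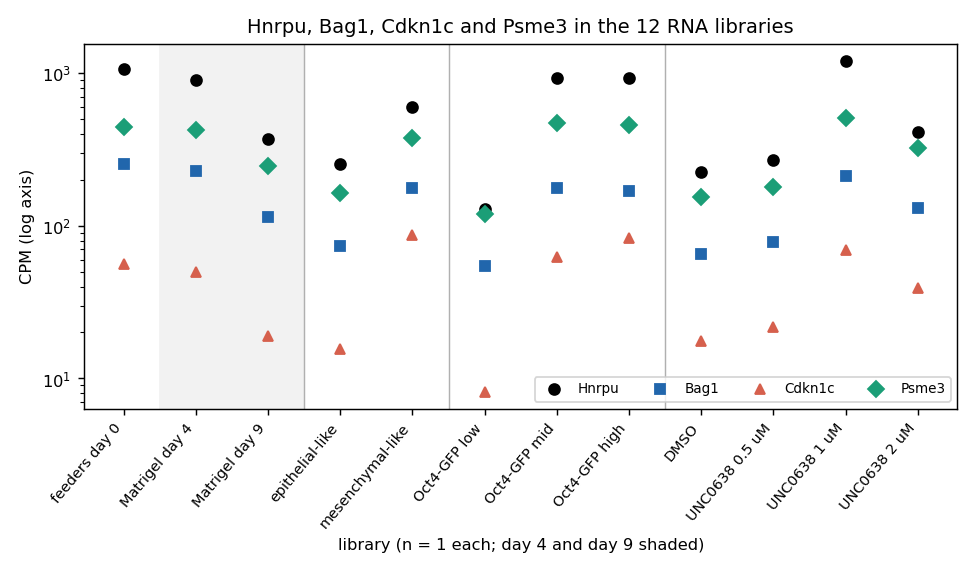
CPM (log axis) of Hnrpu (circles), Bag1 (squares), Cdkn1c (triangles) and Psme3 (diamonds) in the 12 RNA libraries, 1 library a group, with vertical lines between experiments and days 4 and 9 shaded. Hnrpu was 893 CPM on day 4 and 367 on day 9, and 130, 924 and 921 CPM in the low, mid and high Oct4-GFP fractions.

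Other genes completed the 15 lowest: Tmem46 (Shisa2, an inhibitor of Wnt and FGF receptor maturation, -1.18), 1700054N08Rik (Ccsap, a centriole and spindle protein, -1.17), the kinase Uhmk1 (-1.16), Tmem98 (-1.15), the adenylate kinase Ak1 (-1.15) and Mfsd3 (-1.13), all between 8.89 and 14.4 CPM on day 4. Odc1, the rate-limiting enzyme of polyamine synthesis, fell outside the naming rule and was chosen after its values were seen. It had 68.3, 78.2 and 38.1 CPM (-1.02, -1.20 to -0.88). Among the 15 lowest genes, which the ratio picks partly for a high day 4 value, day 4 was above the feeder level in 10, and day 9 was below it in all 15.

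Ribosomal protein and respiratory chain genes were slightly lower on day 9 as groups, without a call (5.66% of all well-counted genes were called). All 77 matched ribosomal protein genes (78 sought) were well counted; 69 had a negative ratio and 8 a positive one, against 53.4% and 46.6% of all well-counted genes, and the median was -0.16. All 67 respiratory chain genes were well counted, 64 had a negative ratio and the median was -0.19. These are short transcripts, with median lengths of 679 and 693 bases, and length-centred the medians were -0.01 and -0.05. Near the low end of each list, Rps14 had 1023, 899 and 716 CPM (-0.33, or -0.17 length-centred) and the ATP synthase gene Atp5o 433, 412 and 319 CPM (-0.37, or -0.21). Ribosome biogenesis genes, which are longer, had 0 calls of 28 and a median of 0.06, with nucleolin (Ncl) at 1039, 931 and 1116 CPM.

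**Figure D5:**
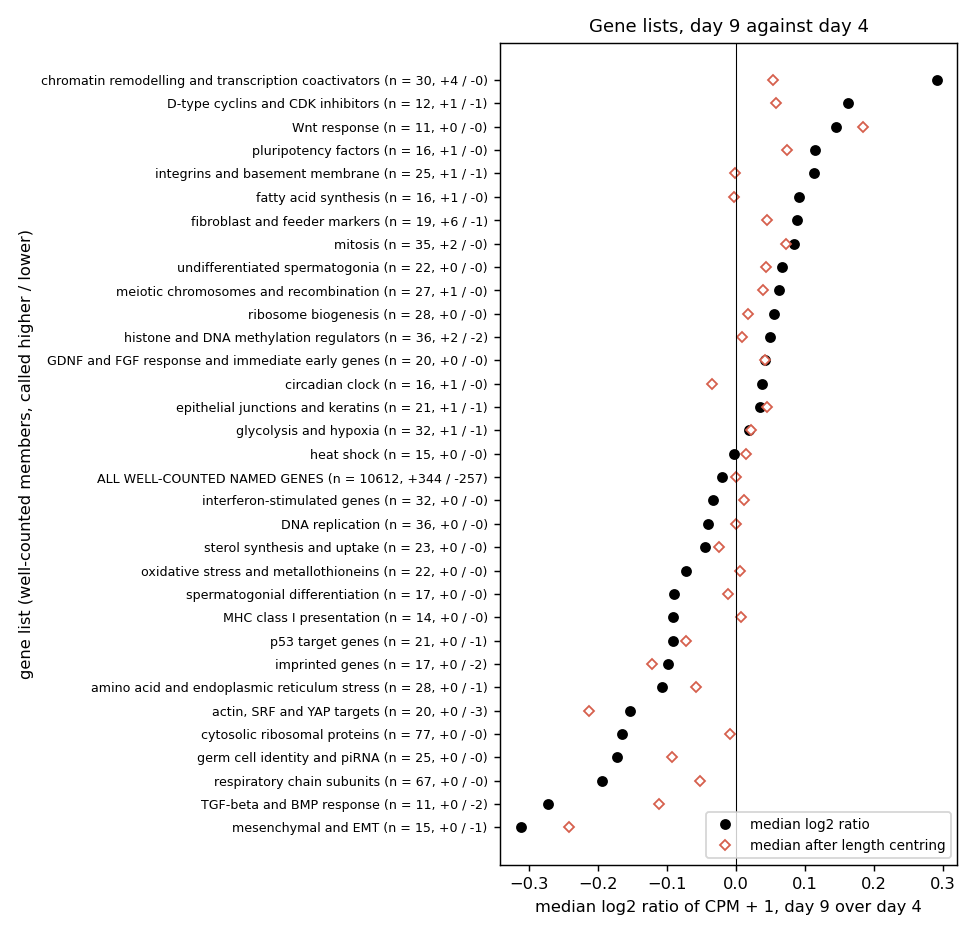
Median log2 ratio of CPM + 1 (day 9 over day 4) of each gene list with 10 or more well-counted members (black), and the median after centring on genes of like length (open red). The number of well-counted members and of those called higher and lower stands beside each name; chromatin remodelling goes from 0.29 to 0.05 and ribosomal proteins from -0.16 to -0.01 on centring.

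Of 32 well-counted glycolysis and hypoxia genes (35 sought), 1 rose and 1 fell; the calls of this list and of the sterol and fatty acid lists lay near the background of 5.66%. Pfkfb3, which makes the activator of phosphofructokinase, had 10.2, 12.3 and 22.1 CPM (0.80, 0.56 to 1.15), and the vasodilator peptide adrenomedullin (Adm) 9.07, 7.87 and 4.80 CPM (-0.61), a call lost with TPM, total counts, length centring or a pseudocount of 5. The hypoxia targets Bnip3 (116, 149 and 109 CPM) and Ldha (307, 327 and 268 CPM) were uncalled. Sterol synthesis and uptake gave 0 calls of 23, with ratios from -0.27 to 0.31. Fatty acid synthesis gave 1 of 16, the desaturase Scd1, from 4.82 to 8.14 CPM with 5.96 on day 0, lost when length-centred or with a pseudocount of 5, while its relative Scd2 had 71.0, 64.9 and 75.0 CPM.

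Stress, immune and clock lists are set against the 5.66% called among all well-counted genes. Edem1, which directs misfolded glycoproteins to degradation, was the 1 call among 28 well-counted amino acid and endoplasmic reticulum stress genes (53.9, 51.0 and 27.3 CPM, -0.88, -1.10 to -0.71). Other targets of the same stress did not go with it, with the chaperone Hspa5 at 988, 938 and 982 CPM and Herpud1, Dnajb9 and Ddit3 uncalled. Heat shock genes had 0 calls of 15, and oxidative stress genes with metallothioneins 0 of 22, although the antioxidant enzymes Nqo1 (-0.53) and Gclm (-0.45) had intervals below no change. Interferon-stimulated genes had 0 calls of 32, from Irf7 at -0.50 to Iigp1 at 0.39, and MHC class I presentation 0 of 14, with B2m at 593, 637 and 576 CPM. In the circadian clock list 1 of 16 was called, the repressor Bhlhe40 (listed as Bhlhb2), which had 8.30, 4.82 and 8.22 CPM (0.66), near its feeder level on day 9; the call was lost with a pseudocount of 5.

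Markers of other testis cells were at low levels on all 3 days. Of 15 matched Sertoli and Leydig markers (16 sought) 3 were well counted and 0 called, near the 5.66% of all well-counted genes. The summed level of the 15 was 56.3, 56.5 and 61.0 CPM, and Amh, Fshr, Cyp17a1, Insl3 and Lhcgr were at 0 counts. Star, which carries cholesterol into mitochondria for steroid synthesis, was just under the count minimum with 7, 31 and 63 counts (0.76, interval 0.32 to 1.64). Of 9 matched endothelial and erythroid markers (10 sought) 2 were well counted and 1 was called higher, against 3.24% of all well-counted genes. Pecam1, an adhesion molecule of endothelium also made by germ cells, was called, with 10.1, 3.30 and 6.35 CPM, a call lost with a pseudocount of 5. The endothelial receptor Kdr, too thinly counted to call, had 33 counts on day 4 and 16 on day 9, the other direction. Tek, the angiopoietin receptor and the other well-counted member, had 5.96, 5.67 and 8.95 CPM (0.58, interval 0.21 to 1.12), just short of 1.5-fold. The summed level of the 9 was 21.1, 15.4 and 19.12 CPM. In the list of nuclear RNAs 7 of 10 were matched, 3 were well counted and 0 were called, near the 5.66% of all well-counted genes.

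The most abundant named genes per length were close between the days. By the deposited TPM (a relative transcript abundance that accounts for gene length), ferritin light chain Ftl1 led with 10329 on day 4 and 9289 on day 9, followed by ubiquitin Ubb (5979 and 5716), cyclophilin Ppia (5658 and 5509), the chaperone Hspa8 (4428 and 4588) and the peroxidase Prdx1 (4671 and 4090). The ribosomal protein genes Rps14 and Rps2, the metallothionein Mt1 and the elongation factor Eef1a1 were also among the most abundant. The log2 ratios of CPM + 1 of these 9 genes ran from -0.33 (Rps14) to -0.02 (Mt1), and 0 of them were called.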

How the data were processed

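Total RNA was taken up in low-input libraries after a variant of Smart-seq2, a method of whole-transcript cDNA amplification, per the labels' protocols. Trim Galore, RSEM and the build mm10 are named in the submitters' processing notes; the aligner and the annotation release are not given in the sources used here. The authors deposited 1 table per library with 27128 genes (6802 with symbols starting with LOC or EG). Per the file headers the tables hold an expected count for each gene, which the authors did not normalize, TPM, which the authors scaled to length and a fixed total, and FPKM, a deposited column that was not used. How reads were divided between near-identical genes cannot be checked, and nothing says whether strand was used.

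Expected counts were rounded to whole numbers and scaled to CPM with TMM factors over the 12 RNA libraries (edgeR 4.0.16, R 4.3.3). Genes were kept at a mean over the 12 libraries of 1 CPM or more. The ratio was that of CPM + 1, which understates differences of low genes. Counting intervals are 95% Clopper-Pearson intervals of the split of a gene's counts; since no molecular identifiers mark PCR copies, they cover counting error only. A library with 3 counts of a gene shows 0.254 CPM on day 4 and 0.244 on day 9.

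The genes named were the 15 highest and 15 lowest ratios with at least 100 counts in the higher library, the 10 whose interval bound lay farthest from no change each way, members of 36 gene lists, and the 10 highest by TPM, 1 of which is not reported here; genes like Acta2, Lcn2 and Hnrpu across libraries were ranked by Pearson r among the called genes. Ubfd1, Psme3, Gmcl1, Prkar2b, C3, Dpysl2, Tnfaip3, Hp, Ptgs2, Sri and Hspb8 were named from that ranking, after their values were seen. The comparison and the lists were chosen with earlier results of these data known. Of 989 list members, 975 were matched by symbol, older symbol or RefSeq transcript (GRCm38.p6 table). Length centring subtracted the median ratio of 20 length bins. The TEAD motif and the looser CArG rule were added after seeing the data. Alternatives were DESeq2 1.42.0 size factors, total counts, TMM over both libraries alone, TPM, other pseudocounts, filters and count minimums. The steps were tested on simulated counts. Intervals came from scipy 1.17.1, tables from pandas 2.3.3 and numpy 2.4.6 in Python 3.11.15, and plots from matplotlib 3.10.9. The 4 ATAC libraries were not analysed here.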

Additional observations from a re-analysis of the deposited data

How the results depend on the processing

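Counts of genes depended on the settings. Genes at least 2-fold apart numbered 858 with a pseudocount of 0.1 (484 higher, 374 lower), 17 with 5 (4 higher, 13 lower) and 54 with a filter at 10 CPM (20 higher, 34 lower). Well-counted named genes past the 1.5-fold rule numbered 255 with a pseudocount of 5 (133 higher, 122 lower), 1098 at a minimum of 30 counts (628 and 470), 172 at 500 counts (86 and 86) and 72 at 2-fold (31 and 41). The split between directions moved with the scaling, from 344 higher and 257 lower to 427 and 208 with total counts and 434 and 152 with the deposited TPM, which moved the median of all well-counted genes by 0.10; the cause was not tested. Of 36 list medians, 13 changed sign under at least 1 setting, 9 of them with TPM and 8 length-centred. Those whose members' order-statistic interval had lain wholly on 1 side of 0 were oxidative stress genes (-0.07), at 0.034 with TPM and 0.0064 length-centred, and integrins and basement membrane (0.11), at -0.00088 length-centred. Of 285 recomputed list medians, 261 stayed within that interval. Of 609 recomputed ratios of 87 named genes, 558 kept their side of the rule, 51 lost the call, and 0 of the 77 called genes changed sign. Of the 10 uncalled ones, 5 changed sign: Eef1a1, Hspa8, Mt1, Ppia and Rps2, each length-centred, and all but Ppia with TPM. No paired analysis was possible because each RNA group had 1 library.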

Other observations

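Acta2 varied widely over the 12 RNA libraries, from 0.079 to 189 CPM in the 9 that are not part of the feeder-removal experiment. The called genes whose levels went most like it were Ptgs2, the inducible cyclooxygenase (Pearson r = 0.943), the calcium-binding protein sorcin (Sri, 0.9403), Fas (0.926) and the small heat shock protein Hspb8 (0.919), over 12 libraries that share their experiments. Ptgs2 had 12.8 CPM on day 0, 14.0 on day 4 and 7.16 on day 9. Prl2c3 ranged from 0 to 602 CPM in the same 9 libraries and Lox from 6.26 to 1481 CPM.

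In the RefSeq promoter windows, 14 motifs were searched on both strands, and 12 of the 15 lowest and 10 of the 15 highest genes had a window. A gene was counted once if any of its windows held the motif. The percentages are of single windows, an unlike measure. Among the 12, genes with a motif numbered 4 for AP-1 (TGANTCA, in 7.81% of all windows), 4 for TEAD (CATTCC, 14.7%) and 4 for CCAAT (37.4%). They numbered 5 for the antioxidant response letters TGANNNNGC (41.3%) and 3 for the CHR element TTTGAA (17.9%). The looser CArG rule matched in 3 (9.98%), which include the 1 matched by the strict rule (1.63%). The E-box CACGTG (7.15%) and the heat shock letters GAANNTTC (7.86%) were in 2 each, the interferon-stimulated response element (3.44%) and TATAAA (13.6%) in 1 each, and the CRE TGACGTCA (1.79%), the D-box TTATGTAA (0.938%) and the amino acid response letters TGATGNAA (3.97%) in 0. Among the 10 highest genes with a window, 5 held the antioxidant letters, 3 CCAAT, 2 the heat shock letters, 1 each CHR, the E-box and TEAD, and 0 any of the other 8 motifs. No test was made.

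Predicted loci were more common among genes at least 2-fold apart than among those kept: 43 of 249 (17.3%) had symbols starting with LOC or EG, against 8.43%.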
